A study of Mus musculus with 4 samples.

Results

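The genes described here copy DNA and make its building blocks. They are 39 genes, chosen by symbol and function from the 27998 gene rows of the count tables, and all 39 were found. Of these, 14 license and fire origins or belong to the replicative helicase, 17 work at the fork as clamp, clamp loader, polymerases, single-strand binding protein or lagging-strand enzymes, 4 control forks, chromatin or histone mRNA, and 4 supply deoxynucleotides. Transcripts were counted as unique molecular identifiers (UMIs) in single cells of cerebellar tumours from 4 littermate mice at postnatal day 20, with 1 library per mouse made with 10x Chromium 3′ chemistry. All 4 mice were Atoh1-cre:SmoM2, in which Cre under the Atoh1 promoter switches on an active form of Smoothened in granule neuron precursors, and their tumours are labelled medulloblastomas of the SHH subgroup. There was no tumour-free group, so each comparison sets cells against other cells of the same mice. Tumours were dissociated with Accutase and live cells were sorted by 7-AAD exclusion, which removes dying cells. The library of mouse 1 was sequenced at 2 time points, and the other 3 libraries once.

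Before S phase, the proteins Cdc6 and Cdt1 load the Mcm2 to Mcm7 ring onto origins, and Cdc45 and the GINS complex turn the ring into an active helicase when the origin fires. Behind the helicase, polymerase alpha with its primase starts each strand, replication factor C loads the PCNA clamp, polymerases delta and epsilon extend the strands, and Fen1 and Lig1 join the lagging-strand pieces. Ribonucleotide reductase, thymidylate synthase and thymidine kinase supply the deoxynucleotides. In textbook accounts E2F transcription factors, held back by pocket proteins until late G1, drive many of these genes. Granule neuron precursors divide in response to Sonic hedgehog in the young cerebellum and leave the cell cycle as they differentiate into granule neurons.

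Promoter windows of the genes the results turn on are shown first, for 4 genes that were higher in S-only than in G2M-only cells below (Mcm3, Mcm6, Cdt1 and Dtl) and 2 nucleotide genes that were not called there (Rrm2 and Tk1). Each window runs from 250 bases before to 50 bases after the annotated start in RefSeq (build GRCm38.p6), 5′ to 3′ on the gene's own strand. Capitals mark E2F-type letters, which are TTTCCCGC, TTTGGCGC, TTTCGCGC or TTTGCCGC on either strand, with overlapping matches counted separately. The first 4 genes hold such letters and Rrm2 and Tk1 hold none, as do Mcm2, Pcna and Rpa2, which were also higher in S-only than in G2M-only cells. Conversely, Pola1 and Pold1 hold such letters and were not called there. Whether the letters go with the calls was not tested.
Mcm3 (chr1:20820263-20820562, minus strand): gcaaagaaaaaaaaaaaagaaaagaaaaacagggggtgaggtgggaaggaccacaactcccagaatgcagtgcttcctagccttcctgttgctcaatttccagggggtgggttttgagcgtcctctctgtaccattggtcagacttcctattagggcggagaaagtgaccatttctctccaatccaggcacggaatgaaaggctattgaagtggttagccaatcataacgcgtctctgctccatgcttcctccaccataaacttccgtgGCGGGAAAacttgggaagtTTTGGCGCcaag
Mcm6 (chr1:128359656-128359955, minus strand): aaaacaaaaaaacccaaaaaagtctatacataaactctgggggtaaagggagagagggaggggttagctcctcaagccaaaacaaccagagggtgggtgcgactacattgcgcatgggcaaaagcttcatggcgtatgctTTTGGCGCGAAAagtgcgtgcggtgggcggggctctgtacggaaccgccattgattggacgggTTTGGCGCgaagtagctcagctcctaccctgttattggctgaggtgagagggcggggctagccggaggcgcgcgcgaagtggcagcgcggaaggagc
Cdt1 (chr8:122567765-122568064, plus strand): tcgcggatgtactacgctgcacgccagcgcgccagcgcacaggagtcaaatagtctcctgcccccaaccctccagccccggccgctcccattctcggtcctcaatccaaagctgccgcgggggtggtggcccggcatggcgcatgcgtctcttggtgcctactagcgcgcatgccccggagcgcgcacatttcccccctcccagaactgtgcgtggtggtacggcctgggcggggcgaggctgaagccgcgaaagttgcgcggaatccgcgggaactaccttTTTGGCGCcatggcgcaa
Dtl (chr1:191575495-191575794, minus strand): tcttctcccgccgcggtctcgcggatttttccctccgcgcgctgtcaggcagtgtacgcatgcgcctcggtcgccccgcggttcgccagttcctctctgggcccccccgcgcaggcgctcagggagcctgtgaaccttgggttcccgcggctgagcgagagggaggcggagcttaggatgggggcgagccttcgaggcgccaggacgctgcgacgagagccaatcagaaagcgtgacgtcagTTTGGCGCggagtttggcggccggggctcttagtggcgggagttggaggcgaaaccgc
Rrm2 (chr12:24708004-24708303, plus strand): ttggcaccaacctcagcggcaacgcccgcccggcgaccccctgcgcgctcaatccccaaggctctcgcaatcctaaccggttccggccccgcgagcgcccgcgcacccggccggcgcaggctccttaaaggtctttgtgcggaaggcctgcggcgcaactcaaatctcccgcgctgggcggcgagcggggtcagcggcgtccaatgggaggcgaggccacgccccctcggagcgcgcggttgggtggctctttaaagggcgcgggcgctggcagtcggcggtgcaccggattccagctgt
Tk1 (chr11:117825965-117826264, minus strand): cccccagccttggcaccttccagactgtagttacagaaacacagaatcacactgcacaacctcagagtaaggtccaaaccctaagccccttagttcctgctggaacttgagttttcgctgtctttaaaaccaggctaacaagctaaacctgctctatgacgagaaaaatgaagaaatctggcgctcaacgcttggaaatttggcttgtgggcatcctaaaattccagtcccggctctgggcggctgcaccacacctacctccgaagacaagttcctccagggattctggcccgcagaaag

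Of the 39 genes, 33 have a window in the table, and 14 of these 33 (42.4%) hold E2F-type letters in at least 1 window, against 2.61% of all 27025 genes with a window and 5.57% of the 6053 genes with at least 100 UMIs in these cells. By role, the letters were in 7 of 10 licensing and helicase genes, 4 of 15 fork genes, 3 of 4 genes of fork control, chromatin or histone mRNA, and 0 of 4 nucleotide genes. They lay in the windows of Cdc6, Cdt1, Gins3, Mcm3, Mcm5, Mcm6 and Mcm7, of Lig1, Pola1, Pold1 and Rfc3, and of Clspn, Dtl and Uhrf1. The letters CCAAT, on either strand, were in 23 of the 33 genes (69.7%), against 41.1% of all genes and 43.9% of the expressed genes. These are matches of letters, not sites, and an absence says only that the letters are not in that window. Gins1, Gins2, Gins4, Mcm4, Pole and Rfc2 were not in the table.

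The files hold 5670 barcodes with 1679285 to 3801197 UMIs per library, of which 4122 cells were analysed (704 to 1364 per mouse, median 1727 to 2564 UMIs per cell). Barcodes shared by at least 2 libraries numbered 20. The library of mouse 3 was the shallowest. It had the lowest total of the 39 genes, 37.1 per 10000 UMIs against 40.9 to 41.4 in the other mice. The numbers of the 39 genes called in each comparison below were also made without mouse 3. Counts for other gene lists, overlaps between classes and shares of cells were not. Of the cells, 3768 were granule-lineage-like (3371 progenitor-like and 397 differentiating), 169 astroglia-like, 141 oligodendrocyte-lineage-like, 39 myeloid-like and 5 choroid-plexus-like. The classes were found by clustering without the 39 genes and their pathway. Progenitor-like cells are every granule-lineage-like cluster that did not meet the rule for differentiating ones, so the name does not rest on progenitor markers. Every granule-lineage-like cluster had at least 4 granule markers, Atoh1 and Sfrp1 among them, at least 1 log2 unit above the oligodendrocyte-lineage-like and myeloid-like cells. Those markers did not set the class apart from astroglia-like cells, whose 3 clusters had 4 to 7 of them, and 2 of these clusters had both Atoh1 and Sfrp1.

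Every gene was detected. The helicase ring was counted with 1195 UMIs of Mcm2, 1255 of Mcm3, 856 of Mcm4, 1253 of Mcm5, 2680 of Mcm6 and 3037 of Mcm7 in the analysed cells. Its activators had 428 UMIs of Cdc45, 493 of Gins1, 642 of Gins2, 146 of Gins3, 630 of Gins4 and 192 of Mcm10, and the loaders 224 of Cdc6 and 637 of Cdt1. At the fork, the clamp gene Pcna had 1386 UMIs and its loader genes Rfc1 to Rfc5 had 1350, 1194, 1013, 1635 and 753. The rarest genes were Gins3 and Pole, and single comparisons of them rest on few UMIs.

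Polymerase alpha and primase were counted with 315 UMIs of Pola1, 349 of Pola2 and 1222 of Prim1, polymerase delta with 469 of Pold1 and 1041 of Pold2, and the catalytic subunit of polymerase epsilon with 147 of Pole. The single-strand binding protein had 724 UMIs of Rpa1, 1423 of Rpa2 and 1088 of Rpa3, the flap nuclease 1004 of Fen1 and the ligase 1215 of Lig1. Dtl, which directs Cdt1 to destruction at the fork, had 1640, the checkpoint mediator Clspn 654, the reader of newly copied methylated DNA Uhrf1 906, and the histone mRNA binding protein Slbp 2561. Ribonucleotide reductase had 1603 UMIs of Rrm1 and 2124 of Rrm2, thymidylate synthase 1531 of Tyms, and thymidine kinase 702 of Tk1. A row for a processed copy of Pcna, Pcna-ps2, held 104 UMIs in granule-lineage-like cells beside 1318 of Pcna, so the counting could have split this gene. Exons of Cdc45, Fen1, Gins2, Lig1, Mcm7, Pole, Rfc2, Rfc4, Rfc5, Slbp and Tk1 overlap a gene on the opposite strand and those of Rpa1 a gene on its own strand, and whether the counting used strand is not given in the sources used here.

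Granule-lineage-like cells were split into 4 states by the sign of an S score (23 genes) and a G2M score (54 genes) that contain none of the 39 genes. S-only cells (326) had a positive S score alone, S and G2M cells (810) had both scores positive, G2M-only cells (1322) had a positive G2M score alone, and both-low cells (1310) had neither. The scores cut a continuous range: 15.8% of the cells lay within 0.05 of the S limit and 19.1% within 0.05 of the G2M limit. The S scoring genes include fork and repair genes such as Pold3 and Chaf1b, so a rise of other S phase genes in cells with a positive S score is partly built into the states. The S scoring genes summed to 35.2, 37.2, 14.8 and 10.9 UMIs per 10000 in the 4 states in that order, and the G2M scoring genes to 43.3, 137, 177 and 34.0. Median depths were 2314, 2478.5, 1944.5 and 2115.5 UMIs per cell.

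The 39 genes together held 62.2, 63.5, 44.3 and 54.8 UMIs per 10000 in S-only cells of mice 1 to 4, 75.1, 69.2, 56.5 and 67.3 in S and G2M cells, 35.7, 33.7, 34.5 and 33.7 in G2M-only cells and 26.1, 24.7, 25.0 and 24.8 in both-low cells. In each mouse the order was the same, with S and G2M cells highest, then S-only, G2M-only and both-low cells. Licensing and helicase genes summed to 21.8 ± 3.43 in S-only cells, 20.4 ± 2.58 in S and G2M cells, 10.7 ± 0.381 in G2M-only cells and 9.24 ± 0.544 in both-low cells (SD, n = 4 mice). Nucleotide genes summed to 5.77 ± 1.68, 11.3 ± 1.79, 5.23 ± 0.532 and 2.16 ± 0.163 in the same states, with S and G2M cells above every other state and S-only and G2M-only cells overlapping. Genes of fork control, chromatin or histone mRNA summed to 7.63 ± 1.68, 10.7 ± 0.698, 4.40 ± 0.687 and 3.07 ± 0.258. Fork genes summed to 21.0 ± 2.29, 24.6 ± 2.89, 14.0 ± 0.175 and 10.7 ± 0.291. Gene by gene, the highest mean was in S and G2M cells for 29 genes and in S-only cells for 10, which were Mcm2, Mcm3, Mcm4, Mcm5, Mcm6, Gins2, Cdc6, Rfc3, Pola2 and Pold2. For Mcm2 to Mcm6 the S-only state was highest in all 4 mice.

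**Figure D1:**
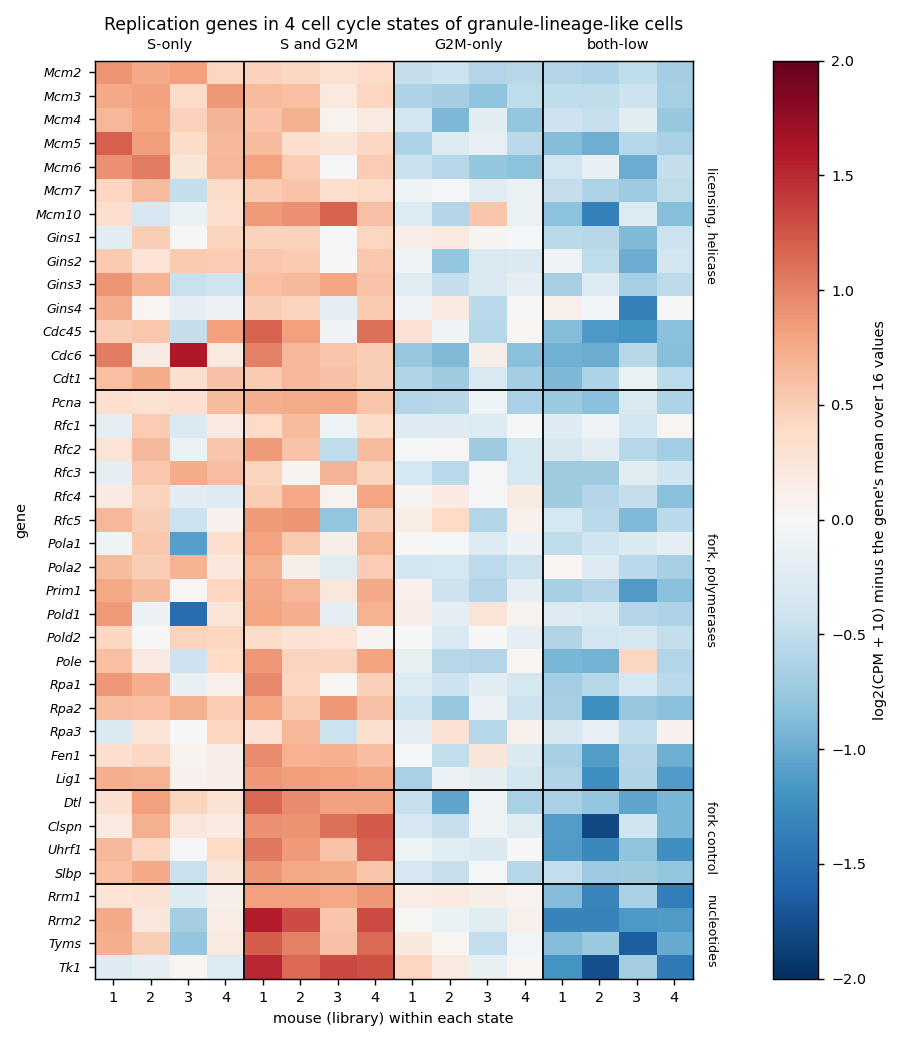
Each row is a gene, grouped by role, and each column a mouse within a state; colour is log2(CPM + 10) minus the gene's mean over its 16 values, where CPM is UMIs of the gene scaled to 1000000 UMIs of that state and mouse. Mcm2 to Mcm6 are reddest in S-only cells and blue in G2M-only and both-low cells, while Rrm1, Rrm2, Tyms and Tk1 are reddest in S and G2M cells and near white in G2M-only cells.

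S-only cells were set against both-low cells to ask which genes were higher where S phase genes were on without mitotic genes. Both-low cells held more differentiating cells (251 of 1310) than S-only (23 of 326), S and G2M (13 of 810) or G2M-only cells (110 of 1322). With a threshold of 0.05 on the adjusted p over all 4576 genes tested, 29 of the 33 replication genes that passed the filter on low counts were higher and 0 lower, where 4.65% of all tested genes were called higher, 2.95% lower and 7.6% in either direction. The median log2 fold change was 1.22 over the 33 genes and -0.01 over all genes. A gene passed the filter when 4 of the 8 sums of a mouse and state reached 33.5 CPM, so it could pass through the state where it is high. Tk1 did, with no both-low value at that limit, and 28 of the other 32 genes were called. Gins1, Pola2, Clspn and Uhrf1 reached the limit in 4 S-only values and 1 both-low value, so their calls there are no support. Of the 33 genes, 23 reached it in every mouse of both states. Mcm10, Gins3, Cdc45, Cdc6, Pola1 and Pole did not pass. With no filter, 29 of all 39 genes were called, and with progenitor-like cells only, 28 of 32 (an alternative added after the data were seen).

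Mcm5, a subunit of the helicase ring, had 325, 252, 179 and 219 CPM in S-only cells of mice 1 to 4, against 69.8, 64.0, 88.3 and 83.5 CPM in both-low cells. Its S-only values were all above its both-low values, and the log2 fold change was 1.74 ± 0.16 (adjusted p = 5.81e-26). Mcm2, its neighbour in the ring, had 249, 226, 236 and 179.9 CPM in S-only cells, against 83.6, 81.0, 88.3 and 77.4 CPM in both-low cells. Its states did not overlap either, with a log2 fold change of 1.41 ± 0.16 (adjusted p = 1.83e-16). Gins4, a GINS subunit, had 102, 59.7, 48.9 and 52.7 CPM in S-only cells, against 62.5, 54.9, 16.6 and 58.1 CPM in both-low cells. Its states overlapped, it was lower in S-only cells of mouse 4, and it was not called at 0.36 ± 0.24 (adjusted p = 0.479).

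Among fork genes, Rpa2 of the single-strand binding protein had 236, 235, 253 and 219 CPM in S-only cells, against 91.9, 58.8, 85.6 and 79.8 CPM in both-low cells. It was higher without overlap, by 1.54 ± 0.16 (adjusted p = 3.32e-20) on the log2 scale. The ligase Lig1 had 209, 205, 130.4 and 136 CPM in S-only cells, against 77.2, 47.0, 77.3 and 50.8 CPM in both-low cells, a difference of 1.48 ± 0.18 (adjusted p = 6.46e-14). The largest subunit of the clamp loader behaved otherwise. Rfc1 had 116, 192, 106 and 149 CPM in S-only cells, against 109, 124, 99.4 and 135 CPM in both-low cells, and at 0.25 ± 0.17 (adjusted p = 0.466) it was not called. The small clamp loader genes Rfc2 to Rfc5 were each higher, by 0.89, 1.02, 0.80 and 0.97, and Pcna, the clamp, by 1.14. Rpa3 and Pold1 were the other genes tested and not called, at 0.32 and 0.77.

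All 4 genes of fork control, chromatin or histone mRNA were higher. Uhrf1 had 138, 115, 81.5 and 114 CPM in S-only cells, against 33.1, 28.7, 44.2 and 30.2 CPM in both-low cells, with no overlap and a log2 fold change of 1.81 ± 0.23 (adjusted p = 4.03e-13). Clspn had 71.2, 107, 73.4 and 70.2 CPM in S-only cells, against 23.0, 10.5, 44.2 and 27.8 CPM in both-low cells, with a log2 fold change of 1.73 ± 0.27 (adjusted p = 2.14e-08). In both genes the S-only value of every mouse lay above every both-low value. Both reached the filter's limit in 1 both-low value only, and with no filter both were still called. Slbp had 401, 444, 187 and 307 CPM in S-only cells, against 181, 153, 155 and 146 CPM in both-low cells, with 1.12 ± 0.12 (adjusted p = 8.62e-18), and mouse 3 was the lowest S-only value. With cells thinned to 1000 UMIs Slbp was not called (adjusted p = 0.151).

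The nucleotide genes Rrm1, Rrm2 and Tyms were higher too. Rrm2, the small subunit of ribonucleotide reductase, had 307, 209, 106 and 197 CPM in S-only cells, against 64.3, 64.0, 74.5 and 75.0 CPM in both-low cells, and its log2 fold change was 1.65 ± 0.17 (adjusted p = 1.81e-20). Mouse 3 was again the lowest S-only value, and it was above the both-low values. Tk1, which salvages thymidine, had 44.5, 46.9, 57.1 and 43.9 CPM in S-only cells, against 18.4, 9.15, 30.4 and 14.5 CPM in both-low cells, with 1.47 ± 0.35 from 38 and 50 UMIs. Since it passed the filter through S-only cells alone, its call there is no support; with no filter on low counts its adjusted p was 0.00181, without mouse 2 it was 0.0746 and by DESeq2 0.123. Gins1 was not called without mouse 2, 3 or 4, and Pola2 without any one of the 4 mice. Rrm1, the large subunit, had 182, 183, 122 and 162 CPM in S-only cells, against 77.2, 53.6, 91.1 and 50.8 CPM in both-low cells, with 1.34 ± 0.18 (adjusted p = 2.72e-11). Over the 33 genes, 27 had S-only values all above both-low values, against 7.1% of all genes with no overlap in either direction. The count of 29 genes was 19 with cells thinned to 1000 UMIs, where 26 passed the filter.

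**Figure D2:**
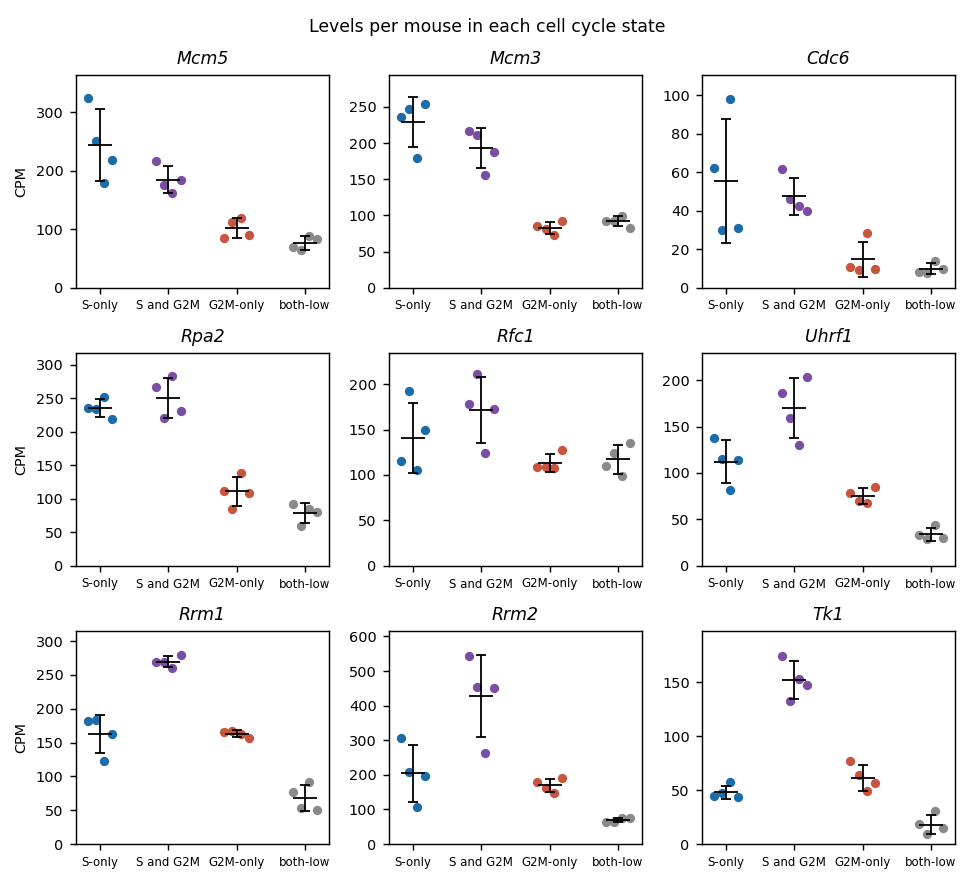
CPM of 9 replication genes in 4 states of granule-lineage-like cells; points are mice 1 to 4 from left to right, the bar is the mean and the whisker the SD (n = 4 mice). Mcm3 is high in both S states and level between G2M-only and both-low cells, whereas Rrm1, Rrm2 and Tk1 lie above both-low cells in G2M-only cells of every mouse.

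S and G2M cells were also set against both-low cells. All 39 genes passed the filter, all 39 were higher and 0 lower, where 13.8% of the 7098 genes tested were called higher, 12.4% lower and 26.2% in either direction, and the medians were 1.35 and -0.03. Tk1 had 175, 133, 153 and 147 CPM in S and G2M cells, against 18.4, 9.15, 30.4 and 14.5 CPM in both-low cells, a log2 fold change of 3.22 ± 0.18 (adjusted p = 9.65e-20). Mcm10, which helps start the helicase, had 42.0, 44.2, 55.4 and 33.2 CPM in S and G2M cells, against 6.43, 1.31, 13.8 and 6.05 CPM in both-low cells, with 2.79 ± 0.32 (adjusted p = 1.19e-09) from 96 and 18 UMIs. Neither gene overlapped between the states. Mcm10, Gins3 and Cdc6 passed the filter through S and G2M cells alone, so their calls there are no support. The other 36 genes were all called higher, though of these Pole reached the filter's limit in 1 both-low value only. With no filter all 39 genes were again called higher. Rpa3, the smallest difference, had 131, 173, 74.9 and 134 CPM in S and G2M cells, against 81.8, 92.8, 71.8 and 112 CPM in both-low cells. It overlapped, was called at 0.55 ± 0.13 (adjusted p = 0.00107), and was not called without the mouse block (adjusted p = 0.108) or by DESeq2 (adjusted p = 0.106). The other genes most above both-low cells were Rrm2 at 2.75, Clspn at 2.51, Cdc45 at 2.49 and Uhrf1 at 2.45. In 33 of the 39 genes the states did not overlap, against 15.9% of all genes tested.

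G2M-only cells against both-low cells gave unequal counts by role. Of 36 genes tested, 20 were higher and 0 lower, where 10.5% of the 7356 genes tested were called higher, 7.69% lower and 18.2% in either direction. All 4 nucleotide genes were higher, by 1.13 to 2.00 on the log2 scale, 3 of 4 genes of fork control, chromatin or histone mRNA, 8 of 16 fork genes and 5 of 12 licensing and helicase genes. This comparison and the 2 before it share the both-low cells.

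Tk1 had 77.4, 63.6, 48.8 and 56.5 CPM in G2M-only cells, against 18.4, 9.15, 30.4 and 14.5 CPM in both-low cells, a log2 fold change of 2.00 ± 0.21 (adjusted p = 4.75e-14) with no overlap. Cdc45, the helicase cofactor, had 48.6, 35.7, 22.4 and 39.3 CPM in G2M-only cells, against 16.5, 11.8, 11.0 and 16.9 CPM in both-low cells, with 1.46 ± 0.24 (adjusted p = 4.79e-07) and again no overlap. Rfc1 had 109, 109, 108 and 128 CPM in G2M-only cells, against 109, 124, 99.4 and 135 CPM in both-low cells, and differed by 0.00 ± 0.11 (adjusted p = 0.998). The ring subunits Mcm3, Mcm4 and Mcm6 and the loader Cdt1 were also not called, at -0.04, -0.04, -0.15 and 0.03. Mcm3 had 85.3, 80.7, 73.3 and 92.6 CPM in G2M-only cells, against 92.8, 92.8, 99.4 and 82.2 CPM in both-low cells, so that the states overlapped. With the score limit at 0.1 in place of 0, Mcm3 at -0.36 and Mcm6 at -0.30 were called lower in G2M-only cells (adjusted p = 0.0127 and 0.00957). Mcm5 was not called without mouse 2, Lig1 without mouse 2 or 4, Pold1 without mouse 4 and Pold2 without mouse 1. The count of 20 genes was 11 without the mouse block and 11 by DESeq2. In 13 of the 36 genes the states did not overlap, against 11.4% of all genes.

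The S-only and G2M-only states were then compared directly. Of 36 genes tested, 21 were higher in S-only cells and 0 lower, where 4.57% of the 5050 genes tested were called higher, 6.48% lower and 11% in either direction, and the median was 0.64 over the 36 genes and 0.01 over all genes. The 21 were 9 of 12 licensing and helicase genes, 8 of 16 fork genes, all 4 genes of fork control, chromatin or histone mRNA, and 0 of 4 nucleotide genes. Pola2 passed the filter through S-only cells alone, so its call there is no support, and 20 of the other 35 genes were called. Cdc6 reached the filter's limit of 27.6 CPM in 4 S-only values and 1 G2M-only value, so its call there is no support either. With no filter Cdc6 was still called.

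Cdc6, a helicase loader, had 62.3, 29.9, 97.8 and 30.7 CPM in S-only cells, against 10.9, 9.31, 28.5 and 9.83 CPM in G2M-only cells. Mouse 3 was the highest in both states, the states did not overlap, and the log2 fold change was 1.88 ± 0.35 (adjusted p = 1.86e-06) from 40 and 43 UMIs. Mcm3 had 236, 247, 179 and 255 CPM in S-only cells, against 85.3, 80.7, 73.3 and 92.6 CPM in G2M-only cells, with 1.42 ± 0.15 (adjusted p = 5.33e-18) and no overlap. Mcm2, Mcm4, Mcm5, Mcm6 and Cdt1 were higher by 1.25, 1.32, 1.28, 1.40 and 1.31. Mcm7 was higher by 0.42 with overlap, and was not called without mouse 1 or without mouse 2. Clspn at 0.67 was not called without mouse 1, 2 or 4, and Uhrf1 at 0.54 without any one of the 4 mice. Pola2, Rpa1 and Lig1 were not called without mouse 1, and Rfc2 without mouse 4. Dtl, which targets Cdt1, was higher by 1.06, and Pcna, on which that targeting takes place, by 0.94.

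Rrm1 had 182, 183, 122 and 162 CPM in S-only cells, against 166, 168, 163 and 156 CPM in G2M-only cells, and was not called at -0.02 ± 0.15 (adjusted p = 0.959). The S-only values lay on both sides of the G2M-only values. Rrm2 had 307, 209, 106 and 197 CPM in S-only cells, against 181, 161, 149 and 190.0 CPM in G2M-only cells, and was not called at 0.26 ± 0.14 (adjusted p = 0.256). Tyms was at 0.30 ± 0.15 (adjusted p = 0.23) and Tk1, lower in S-only cells of 3 of 4 mice, at -0.48 ± 0.25 (adjusted p = 0.253). Missing the threshold does not show that the states were alike in these 4 genes. Other genes near 0 were Gins1 at 0.10, Rfc4 at -0.09 and Rpa3 at 0.11. In 15 of the 36 genes the states did not overlap, against 9.92% of all genes. The count of 21 genes was 10 by DESeq2 and 8 with cells thinned to 1000 UMIs, and Mcm2 to Mcm6, Pcna and Rpa2 were called under all 13 alternatives, and Cdc6 and Cdt1 under the 12 that tested them.

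**Figure D3:**
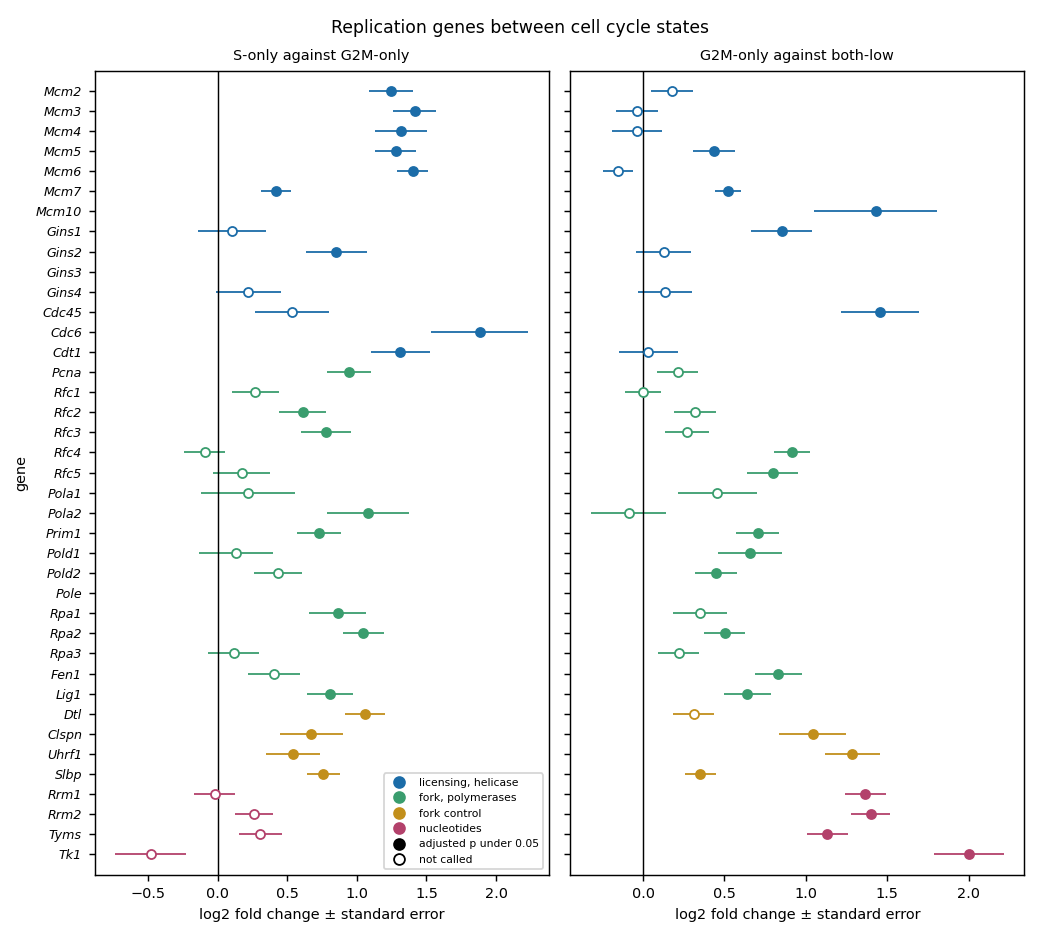
Log2 fold changes with standard errors for S-only against G2M-only cells (left) and G2M-only against both-low cells (right), 1 row per gene; filled points have an adjusted p under 0.05, open points do not, and a gene without a point was not tested. On the left Mcm2 to Mcm6, Cdc6 and Cdt1 lie to the right of 1 and the nucleotide genes within 0.5 of 0; on the right the nucleotide genes lie beyond 1 and Mcm3, Mcm4, Mcm6 and Cdt1 near 0.

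The genes were also counted as shares of cells. After each cell was thinned to 1000 UMIs, a UMI of Mcm6 was found in 38.5% ± 7.23 of S-only cells, 32.8% ± 8.32 of S and G2M cells, 13.9% ± 3.74 of G2M-only cells and 14.6% ± 4.25 of both-low cells (SD, n = 4 mice). For Rrm2 these shares were 17.6% ± 6.58, 33.0% ± 6.85, 15.2% ± 3.61 and 6.45% ± 0.819. Thinning left out 38, 123, 269 and 121 cells of the 4 states. Without thinning, the shares for Mcm6 were 58.4%, 55.2%, 30.1% and 29.9%, and for Rrm2 34.0%, 54.5%, 28.5% and 13.4%. Myeloid-like cells, whose median depth was 1236 UMIs, had a UMI of Mcm6 in 2 of 29 thinned cells and of Rrm2 in 2 of 29, which is 6.90% with an exact 95% binomial interval of 0.846% to 22.8% for each. The both-low share of Rrm2 lies at that level. That share, those of Rrm2 in S-only and G2M-only cells and those of Mcm6 in both-low and G2M-only cells lie within the interval. None of them is clear of background. Among myeloid-like cells 9 had a positive G2M score alone and 2 had both scores positive, and the interval is wide. It therefore cannot show that a share is background alone. Intervals cover counting error only.

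Other genes of replication were counted against the same shares of all genes. In S-only against both-low cells 4.65% of all genes tested were called higher. Of 17 genes of origin recognition and firing, 7 could be tested and 4 were higher, among them the fork protein Wdhd1 at 1.94 ± 0.32 and the origin-firing protein Topbp1 at 1.56 ± 0.32. Of 21 other fork and chromatin assembly genes, 13 were tested and 6 higher, led by Atad5, which unloads the clamp, at 2.02 ± 0.27 and the fork protection gene Timeless at 1.44 ± 0.25. Of 34 genes of purine, pyrimidine and deoxynucleotide synthesis, 26 were tested and 9 higher, among them deoxycytidine kinase, Dck, at 1.34 ± 0.29. Of 18 E2F, pocket protein and cyclin genes, 4 were tested and 2 higher, Cdk2 at 1.09 ± 0.27 and E2f1 at 0.77 ± 0.22. None of the tested genes of these lists was called lower. The medians over the tested genes were 0.89, 0.42, 0.33 and 0.67 in that order.

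In S and G2M against both-low cells, where 13.8% of all genes were called higher and 12.4% lower, 7 of 12 tested origin genes were higher (Ticrr, a helicase-firing factor, at 3.03 ± 0.36 and Dbf4, the activator of the Cdc7 kinase, at 2.06 ± 0.20) and 17 of 21 other fork genes (the histone chaperone Asf1b at 2.95 ± 0.26 and the nuclease Dna2 at 2.84 ± 0.44). Pold4, a small subunit of polymerase delta, was called lower at -1.13 ± 0.33. Among nucleotide synthesis genes 17 of 32 were higher (the folate enzyme Mthfd2 at 2.05 ± 0.17), and Impdh1, an enzyme of guanine nucleotide synthesis, was called lower at -0.71 ± 0.22. Of 15 E2F, pocket protein and cyclin genes 12 were higher, led by cyclin A2, Ccna2, at 3.55 ± 0.16 and the cell cycle regulator Mybl2 at 2.96 ± 0.30.

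In G2M-only against both-low cells, where 10.5% of all genes were called higher and 7.69% lower, 2 of 11 origin genes were higher (Ticrr at 2.35 ± 0.39 and Dbf4 at 2.23 ± 0.19), 7 of 18 other fork genes (Asf1b at 2.23 ± 0.28 and the histone chaperone Chaf1a at 0.80 ± 0.25), 8 of 32 nucleotide synthesis genes (Mthfd2 at 1.06 ± 0.18 and Dut, which removes dUTP, at 0.89 ± 0.07) and 4 of 10 of the E2F list (Ccna2 at 3.68 ± 0.14 and the pocket protein gene Rbl1 at 1.27 ± 0.39). Pold4 at -1.10 ± 0.29 and the guanylate kinase Guk1 at -0.35 ± 0.12 were called lower. Directly between S-only and G2M-only cells, where 4.57% of all genes were called higher and 6.48% lower, 3 of 9 origin genes were higher in S-only cells (Wdhd1 at 1.50 ± 0.29 and Topbp1 at 1.32 ± 0.30) and Dbf4 lower at -1.34 ± 0.26, and 3 of 15 other fork genes were higher (Atad5 at 1.78 ± 0.25 and Timeless at 1.30 ± 0.24) and 2 lower (the ribonuclease H2 subunit Rnaseh2c at -0.61 ± 0.14 and the topoisomerase Top1 at -0.47 ± 0.12). Of 27 nucleotide synthesis genes 8 were higher in S-only cells, among them Prps2, which makes the ribose phosphate donor, at 0.97 ± 0.28. In the E2F list E2f1 at 1.16 ± 0.22 and Cdk2 at 0.80 ± 0.25 were higher and Ccna2 lower at -3.39 ± 0.22.

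Differentiating granule-like cells were set against progenitor-like cells to see how far the replication genes were turned down on the path to neurons. Differentiating cells held the differentiating marker genes, Stmn2 and Gap43 among them, at 70.3 to 88.0 UMIs per 10000 over mice, against 25.3 to 29.8 in progenitor-like cells. Granule progenitor markers overlapped, at 22.7 to 25.4 in differentiating and 25.2 to 27.0 in progenitor-like cells. In the largest progenitor-like cluster (728 cells) the median progenitor marker was at -0.70 log2 units from the granule-lineage level. All 39 genes together held 23.5, 26.1, 18.3 and 19.5 UMIs per 10000 in differentiating cells of mice 1 to 4, against 43.9, 43.8, 39.2 and 45.1 in progenitor-like cells. Every differentiating value was below every progenitor-like value. By state, 63.9% ± 4.19 of differentiating cells were both-low, against 30.9% ± 6.40 of progenitor-like cells, and 3.36% ± 1.98 were S and G2M, against 23.7% ± 4.15 (SD, n = 4 mice).

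Of the 39 genes, all tested, 33 were lower in differentiating cells and 0 higher, where 9.27% of the 7412 genes tested were called lower, 9.55% higher and 18.8% in either direction, and the median log2 fold change was -1.04 over the 39 genes and -0.01 over all genes. Mcm10 had 0, 5.39, 0 and 3.04 CPM in differentiating cells, against 19.4, 16.2, 33.0 and 21.1 CPM in progenitor-like cells. That is 2 UMIs against 185, a ratio of 0.119 with a counting interval of 0.0143 to 0.435, and the fitted difference was called (adjusted p = 0.000711). Mcm10 passed the filter through progenitor-like cells alone, so its call there is no support, and 32 of the other 38 genes were called lower. Cdc6 and Pole reached the filter's limit in 1 differentiating value each, so their calls there are no support either. Pole, the catalytic subunit of polymerase epsilon, had 0, 5.39, 13.8 and 3.04 CPM in differentiating cells, against 15.4, 10.6, 14.9 and 19.7 CPM in progenitor-like cells, from 3 and 137 UMIs, a ratio of 0.241 with an interval of 0.0490 to 0.718. It was called (adjusted p = 0.0269) but not without mouse 1 (adjusted p = 0.173). Gins2, of the GINS complex, had 90.2, 26.9, 27.7 and 63.8 CPM in differentiating cells, against 69.6, 60.6, 53.7 and 68.1 CPM in progenitor-like cells, overlapped, and was not called at -0.13 ± 0.23 (adjusted p = 0.778).

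Among better counted genes, Tk1 differed by -1.92, Dtl by -1.79, Mcm3 by -1.59, Rrm2 by -1.55 and Pcna by -1.29. With clusters made after both scores had been regressed out, so that the classes held other cells, these differences were -1.07, -0.84, -0.49, -0.62 and -0.56, 24 genes were called, and Mcm2, Mcm4, Mcm5, Mcm10, Cdc45, Cdc6, Cdt1, Rfc3, Pole and Uhrf1 were not. Mcm3 had 38.0, 43.1, 69.2 and 42.5 CPM in differentiating cells, against 134, 143, 113 and 138 CPM in progenitor-like cells. The other genes not called were Gins1, Gins3, Gins4, Rfc1 and Rpa3, at -0.58, -0.77, -0.31, -0.15 and -0.45. In 28 of the 39 genes the classes did not overlap, against 16.2% of all genes. Mcm5, Rfc5, Pola1, Pola2, Pold1 and Fen1 were not called without mouse 4, Cdt1 and Rfc2 without mouse 1 or 4, Cdc6 and Rfc3 without mouse 1, 3 or 4, and Pold2 without mouse 1, 2 or 4. The count of 33 genes was 21 without mouse 4, 20 by DESeq2 and 15 with cells thinned to 1000 UMIs. Differentiating cells also had a median mitochondrial share of 2.97 to 4.84%, against 2.87 to 3.23% in progenitor-like cells, and 148 to 244 Malat1 UMIs per 10000, against 112 to 151. With at most 5% mitochondrial UMIs the count was 29, and without cells under 30 Malat1 UMIs per 10000 it was 32.

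The fall in these genes and the smaller share of cycling cells go together, so the classes were also compared among both-low cells alone. There the 39 genes summed to 19.7, 19.6, 15.3 and 15.6 UMIs per 10000 in differentiating cells of mice 1 to 4, against 26.9, 25.8, 26.4 and 27.8 in progenitor-like cells. The S scoring genes also differed among these cells, at 7.04 to 9.95 per 10000 in differentiating cells, against 10.9 to 12.5 in progenitor-like cells, so the both-low limit did not make the classes equal in S phase genes, and the part of that difference in what follows was not tested. The 27 genes that passed the filter had 7 lower and 0 higher, where 7.35% of the 4189 genes tested were called lower, 8.83% higher and 16.2% in either direction, and the medians were -0.41 and -0.01. The filter's limit was 38.4 CPM, and 11 of the 27 genes reached it in every mouse of both classes. Mcm3 and Mcm4 reached it in 4 progenitor-like values and 1 differentiating value, and Pcna and Dtl in 4 and 2. Their calls there are therefore no support. With no filter Mcm3 was still called.

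Mcm3 had 31.3, 37.2, 62.2 and 24.2 CPM in differentiating both-low cells, against 101, 105, 105 and 102 CPM in progenitor-like both-low cells. The classes did not overlap, and the difference was -1.60 ± 0.32 (adjusted p = 1.61e-05). Dtl had 54.8, 37.2, 62.2 and 29.1 CPM in differentiating both-low cells, against 108, 105, 76.4 and 102 CPM in progenitor-like both-low cells, with -1.28 ± 0.31 (adjusted p = 4.58e-04), and by DESeq2 it was not called (adjusted p = 0.0920). Rfc1 had 125, 156, 41.5 and 116 CPM in differentiating both-low cells, against 107, 117, 108 and 142 CPM in progenitor-like both-low cells, and at 0.00 ± 0.22 (adjusted p = 0.993) it was not called. The other genes called lower were Mcm6 at -1.26, Pcna at -1.17, Mcm4 at -1.11, Rrm2 at -0.88 and Mcm7 at -0.67. The ring subunits were not alike in their calls: Mcm2 at -0.39 ± 0.28 (adjusted p = 0.402) and Mcm5 at -0.43 ± 0.29 (adjusted p = 0.374) were not called, and whether they differ from Mcm3 was not tested. Without mouse 4 Pcna and Rrm2 were not called, without mouse 3 Mcm4, without mouse 2 Rrm2 and without mouse 1 Mcm7. Mcm3 and Mcm6 were called under all 12 alternatives, and the count of 7 was 2 by DESeq2, 4 with cells thinned to 1000 UMIs and 11 with the score limit at 0.1. In 7 of the 27 genes the classes did not overlap, against 13.4% of all genes.

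**Figure D4:**
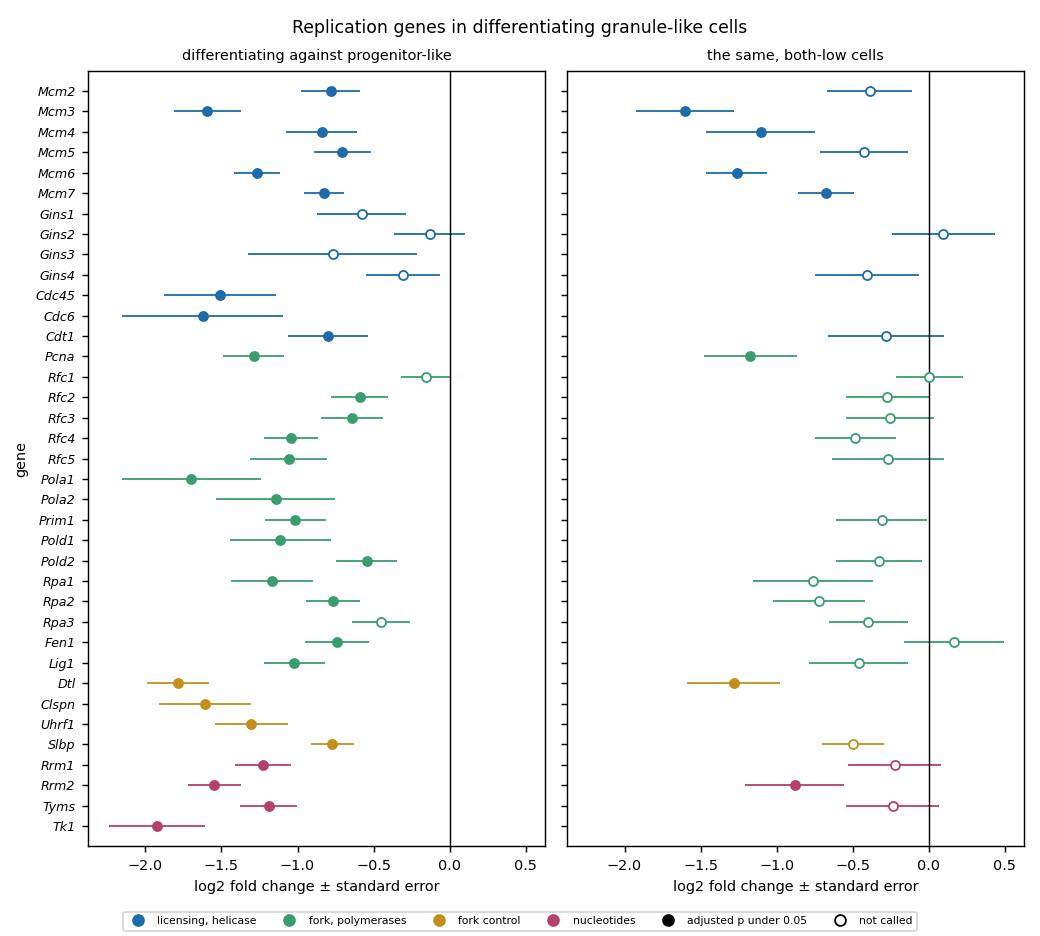
Log2 fold changes with standard errors of differentiating against progenitor-like cells, for all cells (left) and for both-low cells (right). Filled points have an adjusted p under 0.05, and a gene without a point in a panel was not tested there. Mcm10 and Pole, with at most 3 UMIs in all differentiating cells, are left out of both panels. On the left all points lie below 0; on the right Mcm3, Mcm6, Dtl, Pcna and Mcm4 lie beyond -1 and most other points within 1 of 0.

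In differentiating against progenitor-like cells 9.27% of all genes were called lower. Of the other replication lists, 5 of 12 tested origin genes (Ticrr, with 2 UMIs in differentiating cells, and Dbf4 at -1.62 ± 0.32), 8 of 18 other fork genes (Asf1b at -1.95 ± 0.47 and the primase subunit Prim2 at -1.92 ± 0.41), 12 of 31 nucleotide synthesis genes (Mthfd2 at -1.55 ± 0.30) and 4 of 13 of the E2F list (Ccna2 at -2.39 ± 0.22 and Mybl2 at -2.04 ± 0.61) were lower in differentiating cells, and 0 higher. Among both-low cells 0 of 4 origin genes, 0 of 10 other fork genes and 0 of 2 genes of the E2F list were called. In the nucleotide synthesis list 6 of 20 were lower there, with Shmt1, a folate enzyme, at -1.17 ± 0.43 and the purine enzyme Gart at -0.84 ± 0.31 the largest.

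The 2 glial classes were set against granule-lineage-like cells. Oligodendrocyte-lineage-like cells held 23.0, 16.2, 20.9 and 21.2 UMIs of the 39 genes per 10000 in mice 1 to 4, against 42.5, 42.3, 38.0 and 42.4 in granule-lineage-like cells, with no overlap. Of 38 genes tested 20 were lower and 0 higher, where 10.7% of the 7435 genes tested were called lower, 11.5% higher and 22.1% in either direction, and the medians were -1.13 over the 38 genes and -0.14 over all genes. The class has 20 to 50 cells per mouse, so single genes rest on few UMIs, and 71.2% ± 8.66 of its cells were both-low (SD, n = 4 mice). Its median mitochondrial share was 5.32 to 7.00% over mice, against 2.88 to 3.28% in granule-lineage-like cells, and it held 449 to 1054 Malat1 UMIs per 10000, against 115 to 158. Their part in the result was not tested.

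Mcm10 had 0 UMIs in oligodendrocyte-lineage-like cells of all 4 mice, against 18.03, 15.2, 31.2 and 19.2 CPM in granule-lineage-like cells. Set against a floor of 3 UMIs over the class, it was at least 1.89-fold lower, and it passed the filter through granule-lineage-like cells alone, so its call there is no support. Cdc45 had 0, 0, 0 and 7.72 CPM in oligodendrocyte-lineage-like cells, against 48.0, 39.3, 22.6 and 51.3 CPM in granule-lineage-like cells, from 1 UMI and 418. The ratio was 0.0788 with a counting interval of 0.00199 to 0.441. Cdc45 also passed the filter through granule-lineage-like cells alone, so its call is no support either. Of the 36 genes other than Mcm10 and Cdc45, 18 were called lower. Of the 38 genes tested, 20 reached the filter's limit in every mouse of both classes. Mcm4 had 129, 25.9, 134 and 77.2 CPM in oligodendrocyte-lineage-like cells, against 90.2, 91.9, 87.3 and 73.6 CPM in granule-lineage-like cells, on both sides of the granule-lineage values, and was not called at -0.12 ± 0.35 (adjusted p = 0.861). Better counted genes called lower were Slbp at -1.93 ± 0.32 (adjusted p = 7.90e-08), Mcm3 at -1.79 ± 0.40 (adjusted p = 1.65e-04) and Mcm7 at -1.40 ± 0.28 (adjusted p = 1.60e-05). Mcm5 was not called without mouse 1 or 2, Gins1 without mouse 4, Pcna without mouse 2, Rfc5 without mouse 2 or 4, Rpa2 without mouse 1 or 3, and Gins2 and Rpa1 without any one of the 4 mice. In 22 of the 38 genes the classes did not overlap, against 24.9% of all genes. Of the 4 nucleotide genes only Rrm2 was called, at -1.14 ± 0.30 (adjusted p = 0.00156). Mcm2, Mcm7, Rfc4 and Slbp were called under all 12 alternatives, and the count of 20 was 12 by DESeq2 and 8 with thinned cells.

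Astroglia-like cells were nearer to the granule lineage. They held 28.7, 31.6, 25.9 and 33.3 UMIs of the 39 genes per 10000 in mice 1 to 4, against 42.5, 42.3, 38.0 and 42.4 in granule-lineage-like cells. Every astroglia-like value was below the granule-lineage value of its mouse. Their median mitochondrial share was 4.48 to 5.32% over mice and they held 58.3 to 84.5 Malat1 UMIs per 10000, and the part of these in the result was not tested. The class has 13 to 68 cells per mouse, so single genes rest on few UMIs. Few calls therefore do not show that the classes are alike. All 39 genes were tested and 4 were lower and 0 higher, where 1.14% of the 7117 genes tested were called lower, 2.74% higher and 3.88% in either direction, and the medians were -0.31 and -0.11. Cdc6 had 0, 0, 30.5 and 0 CPM in astroglia-like cells, against 24.5, 19.9, 34.3 and 19.8 CPM in granule-lineage-like cells, from 1 and 222 UMIs. The ratio was 0.127 with a counting interval of 0.00320 to 0.714, and it was not called (adjusted p = 0.154). Dtl had 29.9, 60.6, 30.5 and 42.8 CPM in astroglia-like cells, against 173, 166, 174 and 161 CPM in granule-lineage-like cells, without overlap, and its log2 fold change was -1.93 ± 0.33 (adjusted p = 5.16e-07). Pola1, a subunit of polymerase alpha, had 19.9, 30.3, 30.5 and 35.6 CPM in astroglia-like cells, against 31.0, 31.4, 23.4 and 34.0 CPM in granule-lineage-like cells, and differed by 0.00 ± 0.52 (adjusted p = 1). The other genes called lower were Lig1 at -1.12, Rpa2 at -1.07 and Mcm6 at -0.72. In 7 of the 39 genes the classes did not overlap, against 12.7% of all genes. Without mouse 1 or without mouse 2 the count of 4 was 1, without the mouse block it was 2, and Dtl was called under all 12 alternatives.

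Granule progenitor markers were present in the glial classes, at 9.46 to 16.3 UMIs per 10000 over mice in oligodendrocyte-lineage-like cells and 14.7 to 17.7 in astroglia-like cells, against 25.1 to 26.9 in granule-lineage-like cells. In myeloid-like cells they were at 1.20 to 5.54, and the 39 genes there at 8.50 to 15.6. How much of the glial levels came from RNA of granule-lineage cells was not tested. In oligodendrocyte-lineage-like cells a higher both-low share and less RNA of these genes per cycling cell cannot be told apart in the class sums. Of astroglia-like cells 30.4% ± 10.5 were both-low, against 30.9% ± 6.40 of progenitor-like cells, which are part of the granule-lineage-like reference. S-only cells were 3.34% ± 3.12 of astroglia-like cells, against 9.27% ± 1.65 of progenitor-like cells. S and G2M cells were 11.1% ± 7.66, against 23.7% ± 4.15. The part of these shares in the astroglia-like level was not tested. G2M-only cells were 55.2% ± 14.7 of astroglia-like cells (SD, n = 4 mice), and 19.6% ± 8.59 of oligodendrocyte-lineage-like cells. In oligodendrocyte-lineage-like cells, where 10.7% of all genes were called lower, 11 of 32 genes of nucleotide synthesis were lower (Mthfd2 at -1.75 ± 0.54), with 4 of 18 other fork genes (the polymerase epsilon subunit Pole3 at -1.10 ± 0.34 and the ribonuclease H2 subunit Rnaseh2a at -1.06 ± 0.41), 3 of 10 of the E2F list (Ccna2 at -1.52 ± 0.34, E2f7 and E2f1) and 1 of 11 origin genes (Orc6 of the origin recognition complex at -1.03 ± 0.35). In astroglia-like cells 0 of 31, 0 of 18, 0 of 13 and 0 of 12 tested genes of these lists were called by edgeR, in the same order.

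**Figure D5:**
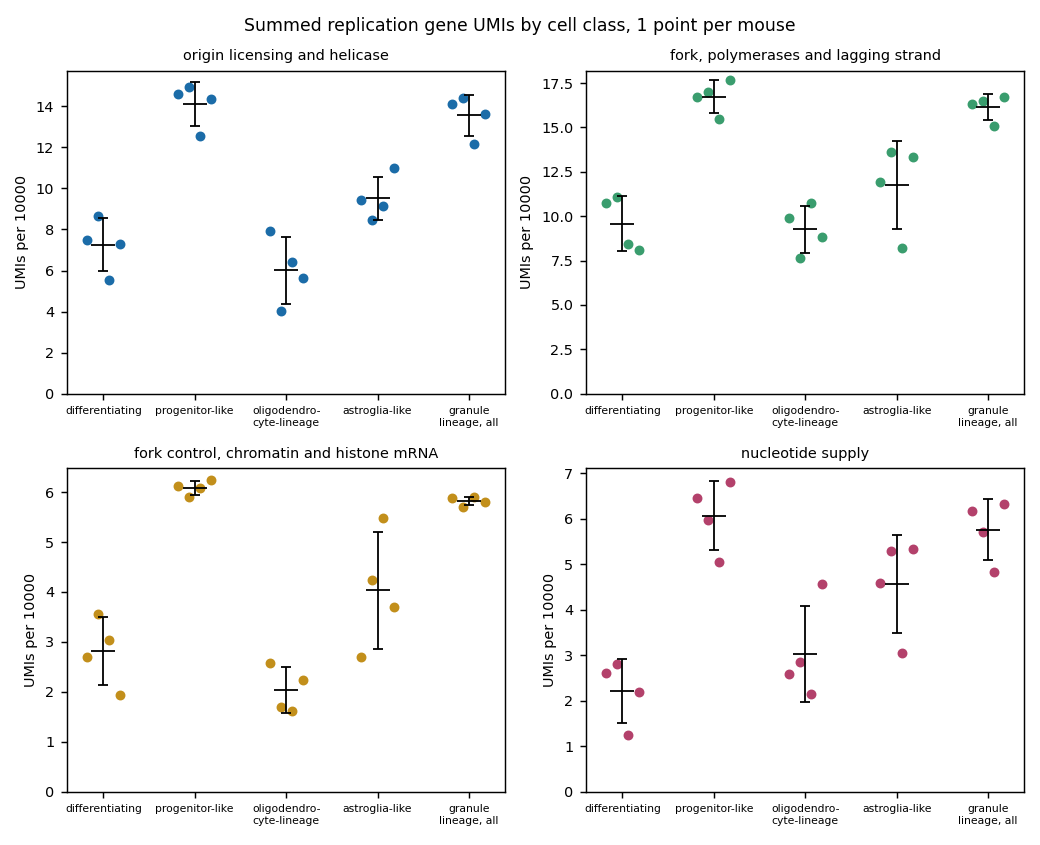
Summed UMIs per 10000 of each role in 5 cell classes; points are mice 1 to 4 from left to right, the bar is the mean and the whisker the SD (n = 4 mice). In all 4 roles differentiating cells lie below progenitor-like cells without overlap, and oligodendrocyte-lineage-like cells lie below progenitor-like cells and overlap differentiating cells.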

How the data were processed

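The deposited values were raw UMI counts per gene and cell barcode, made by the authors with Cell Ranger 2.0.2 on mm10, per the submitters' processing notes, which also name Seurat. The study's design text states 4749 cells, and the files held 5670 barcodes. Barcodes with at least 500 genes numbered 4620, and 4137 of these had at most 10% mitochondrial UMIs. Scrublet marked 15 of them (0.363%), too few for the caller to be relied on, so doublets otherwise remain. The 4122 cells left were normalized to 10000 UMIs and clustered in scanpy 1.11.5 (2000 variable genes, 30 components, 15 neighbours, Leiden resolution 1) without the 39 genes, their pathway lists, scoring, mitochondrial, ribosomal or sex-linked genes. Clusters without a granule name were clustered again, and classes were named from marker lists with thresholds chosen after seeing the data.

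Counts were summed per mouse and class or state. edgeR 4.0.16 (R 4.3.3) fitted its quasi-likelihood test to all genes passing filterByExpr, with TMM scaling and the mouse as a block, and p-values were adjusted by Benjamini-Hochberg over all genes tested. Every adjusted p in the report is from edgeR unless DESeq2 (1.42.0) is named, and ± after a log2 fold change is its standard error. The block pairs cells of the same mouse and library, and deviations of the 2 classes in the same mouse correlated at 0.135 to 0.468 in granule-lineage comparisons and at 0.0690 to 0.193 in those of glia. CPM is UMIs scaled to 1000000 in that mouse and class. In simulated counts, of genes changed by 1 log2 unit, 45% were recovered in S-only against both-low cells and 43% in S-only against G2M-only cells. In oligodendrocyte-lineage-like against granule-lineage-like cells 12% were recovered, and in astroglia-like against granule-lineage-like cells 25%. The simulation gave every gene the same dispersion, had no differences between mice and no pairing, and counted changed genes that failed the filter as missed. These shares are therefore not the power for the genes tested in these data.

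Within each comparison the genes described in full are, for S-only against both-low cells, the 2 largest changes and the smallest in each role, and elsewhere the 2 largest and the smallest of all. Other named genes were picked after their values were seen. Some results for other genes of the lists are not reported here. The 39 genes and all lists were chosen with earlier results of these data known. Alternatives were no mouse block, DESeq2 size factors, the DESeq2 test, no filter on low counts, leaving out each mouse, thinning to 1000 UMIs, at most 5% mitochondrial UMIs, no cells under 30 Malat1 UMIs per 10000, a score limit of 0.1, Leiden resolution 0.5, scores regressed out before clustering and, added after the data were seen, states of progenitor-like cells only. The score limit was changed only in comparisons of states or of both-low cells, and the clustering only in the other class comparisons. The 4 mice are littermates. With the mouse as a block, the p-values rest on differences between classes within these mice, not on the spread in level between them. The spread of a gene is estimated with help from the other genes tested. Sign flips of 4 pairs alone could give no p under 0.125, so smaller values rest on that help and on the count model.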

Additional observations from a re-analysis of the deposited data

Results flagged for a closer look

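Values were compared within groups of 4 mice for a mouse standing far from the other 3, in 123 groups, and 6 stood out, where chance alone gives about 1 in 20. The library of mouse 3 was lowest for the 39 genes summed over granule-lineage-like cells, at 38.0 UMIs per 10000. It was also lowest for Gins4, at 48.9 CPM in S and G2M cells and 16.6 CPM in both-low cells, and highest for Cdc6 in G2M-only cells, at 28.5 CPM. Mouse 4 was highest for Rfc1 in G2M-only cells, at 127.8 CPM, and mouse 2 for Clspn in S-only cells, at 106.7 CPM.

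The barcodes left out by the filters also held replication gene transcripts. The 1050 barcodes with under 500 genes had 35.5 UMIs of the 39 genes per 10000, and the 483 barcodes with at least 500 genes and over 10% mitochondrial UMIs had 43.4. There is no control for these barcodes.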

How the results depend on the processing

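The cause of the changes given here was not tested. Thinning and leaving out a mouse leave fewer counts, and the part of this in the lost calls was not tested either. In S and G2M against both-low cells all 13 alternatives stayed within 1.5 times the count of 39, and all 39 genes were called without any one mouse. S-only against both-low cells gave 29 genes, and 19 with thinned cells. G2M-only against both-low cells gave 20, and 11 with no replicate block and 11 by DESeq2. S-only against G2M-only cells gave 21, and 10 by DESeq2 and 8 with thinned cells. Differentiating against progenitor-like cells gave 33, and 20 by DESeq2 and 15 with thinned cells, and among both-low cells 7, with 2 by DESeq2, 4 with thinned cells and 11 at a score limit of 0.1. The oligodendrocyte-lineage-like comparison gave 20, and 12 by DESeq2 and 8 with thinned cells. The astroglia-like comparison gave 4, and 2 with no replicate block, 1 by DESeq2 and 1 with thinned cells. With progenitor-like cells only, the 4 state comparisons gave 28, 39, 19 and 20. Leaving out 1 mouse gave 26 to 29, 39 to 39, 17 to 20, 15 to 20, 21 to 32, 5 to 7, 15 to 20 and 1 to 4 genes in the order of the report. Without the mouse block, counts elsewhere were 25, 36, 17, 27, 6 and 19, and the block changed the calls of Rpa3 and Pole among the genes described in full. The oligodendrocyte-lineage-like comparison with at most 5% mitochondrial UMIs and the astroglia-like one without low-Malat1 cells had too few cells and gave no value.

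Of the genes described in full, 22 values changed sign, all in genes that were not called. Rfc1 in G2M-only against both-low cells was at 0.0053 with no replicate block, 0.0235 by DESeq2, 0.0175 with no filter, between -0.0304 and 0.0292 without 1 mouse, and 0.144 at a score limit of 0.1. Rfc1 in differentiating both-low cells was at -0.0676 by DESeq2, -0.116 with no filter, -0.0261 at a score limit of 0.1 and between -0.171 and 0.115 without 1 mouse. Rrm1 in S-only against G2M-only cells was between -0.0653 and 0.0428 without 1 mouse and at 0.275 with thinned cells, Gins2 in differentiating cells between -0.404 and 0.0637 without 1 mouse, and Mcm4 in oligodendrocyte-lineage-like cells between -0.326 and 0.245 without 1 mouse. Pola1 in astroglia-like cells was at -0.0024 with DESeq2 size factors, -0.0206 by DESeq2, -0.158 with no filter, -0.220 with scores regressed out, -0.232 at resolution 0.5 and between -0.222 and 0.163 without 1 mouse. Another 17 values lost their call and kept their direction, and 366 kept both.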
